A study of Mus musculus with 16 samples.

Results

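The H3K27Ac peaks described here lie over exons and untranslated regions (UTRs) and away from the nearest gene start in the deposited annotation. A peak is a stretch of the mouse genome where reads from chromatin pulled down with an antibody to acetylated lysine 27 of histone H3 pile up over those of the input. A peak was a member if its deposited annotation named an exon or a UTR, its distance to the nearest deposited start was over 3000 bp, its width was under 2500 bp and the height of its input was under 10 reads. The height is the number of reads that overlap at the top of the peak, and each deposited peak reached at least 15 reads. Of 15757 peaks in Des+/+ basal cardiomyocytes, 635 were members (4.03%, 95% Wilson interval 3.73 to 4.35). Of 16638 peaks in Des-/- basal cardiomyocytes, 672 were members (4.04%, 3.75 to 4.35). Of 11157 peaks in Des+/+ swim cardiomyocytes, 385 were members (3.45%, 3.13 to 3.81). Of 10407 peaks in Des-/- swim cardiomyocytes, 328 were members (3.15%, 2.83 to 3.51). The 2020 members merged into 903 regions, which lay in 801 genes. The intervals cover counting error only.

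H3K27Ac marks nucleosomes beside active promoters and active enhancers, and at genes that are read often it spreads from the start into the gene body. An exon can carry the mark because an enhancer lies across it, because the mark reaches it from the promoter, or because a transcript that the annotation counts under another name starts there. Desmin, the product of Des, is the muscle intermediate filament that ties the Z-discs of neighbouring myofibrils to each other and to the nucleus, the mitochondria and the cell membrane.

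The chromatin came from primary cardiomyocytes, isolated by enzymatic perfusion from the hearts of 3-month-old mice that had or had not swum. The study used Des+/+ mice and mice that lack desmin in all tissues (Des-/-), and its methods describe both as carrying an αMHC-GFP reporter, driven by the α-myosin heavy chain promoter of cardiac muscle. Each of the 4 groups, Des+/+ basal, Des-/- basal, Des+/+ swim and Des-/- swim, was 1 H3K27Ac library made from the pooled chromatin of 5 mice. With 1 library per group no test between groups was possible, and a difference between lists cannot be told apart from a difference between libraries. Heights below are given in the order Des+/+ basal, Des-/- basal, Des+/+ swim and Des-/- swim. Where a region held several peaks of a list, the highest is given, also where that peak fell outside the member limits.

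The library totals were not used here, so depth is known only through the heights. Counting error alone puts a height of 20 reads between 12.2 and 30.9, and a height of 100 reads between 81.4 and 122 (exact 95% Poisson limits). The median height of all peaks was 23, 23, 20 and 23 reads, and the median input height under them was 3, 3, 3 and 5 reads. Of all protein-coding genes, 44.7%, 46.7%, 34.2% and 34.1% had an H3K27Ac peak. Of 15 thick filament and titin genes, 13, 12, 10 and 7 had one (86.7%, 80%, 66.7% and 46.7%). Of 31 endothelial genes, 29, 29, 24 and 24 had one (93.5%, 93.5%, 77.4% and 77.4%). Of 35 genes of fibroblasts, pericytes and matrix, 9, 12, 8 and 8 did (25.7%, 34.3%, 22.9% and 22.9%). Of 25 leukocyte genes, 3, 3, 2 and 3 did. Peaks thus lay at genes of heart muscle and also of endothelium, and the part of endothelial chromatin in the results below was not tested.

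Of the 10 highest regions with a peak in all 4 lists, ranked by their lowest height, 7 lay over genes of small RNAs, 3 of them small nuclear RNAs and 4 the nucleolar RNA U3. The other 3 lay at long non-coding or pseudogene exons. Small nuclear RNAs form the core of the spliceosome, which removes introns, and pair directly with the messenger precursor or with each other. Their sequences are shown because the gene symbol deposited for these peaks is that of the nearest deposited start, such as Rdm1 or Tex14, and not that of the RNA gene under them. In the lines below the capitals mark the stretch for which each RNA is known, and the letters are RefSeq DNA of the gene's own strand in GRCm38.p6.
Rnu1a1, a U1 gene, bases 1 to 30, chr11:87422867-87422896, plus strand, capitals the stretch that pairs with the 5′ splice site: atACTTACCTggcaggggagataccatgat
Rnu2-10, a U2 gene, bases 21 to 50, chr11:101658258-101658287, plus strand, capitals the stretch that recognises the branch point: ctaagatcaagtGTAGTAtctgttcttatc
The capital stretch was present in 9 of 9 U1 genes under regions and in 9 of 9 U2 genes. The copies were similar to different degrees. Of 7 U1 copies of the same length, 6 were identical over all 164 bases, and the 4 U3 copies were identical over 215 bases. Of the 9 U2 copies, 3 were identical over 191 bases, and the lowest identity to Rnu2-10 was 95.3%. Reads that fall inside identical stretches cannot be assigned to 1 copy, so the height of such a copy is uncertain. The flanks of the genes, which the peaks also covered, were not compared.

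At Gm24950, a U2 gene on chromosome 11, the region chr11:101640976-101642530 reached 166, 172, 133 and 121 reads. Of the regions with a peak in all 4 lists, it was the highest. The Des-/- swim peak there was no member, since its input reached 18 reads. At Gm24265, a U4 gene on chromosome 5, the region chr5:115488477-115490910 reached 131, 153, 94 and 104 reads. U4 keeps U6 inactive until the spliceosome is assembled. At Gm24497, a U2 gene on chromosome 1, the region chr1:72243589-72244815 reached 98, 100, 73 and 75 reads.

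The 4 U3 genes stood in a row on chromosome 11, in the neighbourhood of Tex14. U3 is not a splicing RNA but guides the cutting of the ribosomal RNA precursor in the nucleolus. Rnu3b1 reached 115, 105, 83 and 73 reads. Rnu3b2 reached 111, 116, 77 and 86 reads. Rnu3b3 and Rnu3b4 reached 102 and 101 reads in Des+/+ basal. Over the 4 copies the heights ran from 101 to 115, 105 to 116, 77 to 98 and 73 to 86 reads, so each swim list lay below both basal lists at these genes.

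The 9 U1 regions had median heights of 48, 47, 33 and 42 reads. Rnu1a1 itself reached 63, 71, 55 and 45 reads. Rny1 and Rny3 encode Y RNAs, which bind the Ro protein. Rny1 reached 47, 63, 47 and 55 reads. Rny3 reached 34, 32, 20 and 20 reads. In all, 40 regions lay at small RNA genes, of which 30 were U1 to U6 or Y RNA genes, and the start of the RNA lay inside the peak region at 39 of the 40. Of the 40 regions, 29 held a peak in all 4 lists (72.5%, 57.2 to 83.9), against 28.2% of all 903 regions. Small RNA members were also higher, with median heights of 43, 41.5, 33 and 35 reads against 20, 20, 19 and 19 for all members. Higher regions were shared by more lists, and the shares at matched heights were not counted. Of the 29 small RNA regions in all 4 lists, the height was lower after swimming at 28 in Des+/+ and at 28 in Des-/-. The median swim to basal ratios were 0.718 and 0.697. Of all 255 regions with a peak in all 4 lists, 209 in Des+/+ and 217 in Des-/- were lower, with ratios of 0.759 and 0.76.

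**Figure D1:**
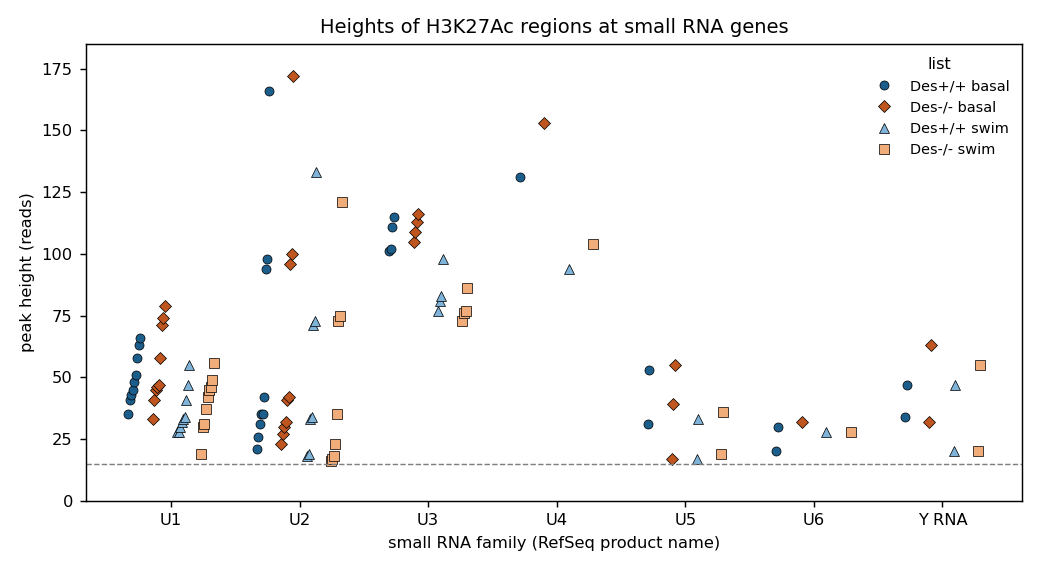
Peak height in reads (y axis) at the 30 regions of U1 to U6 and Y RNA genes, grouped by family (x axis), with 1 point per region and list, colours and shapes for the 4 lists and a dashed line at 15 reads. The U3 copies sit between 73 and 116 reads and the single U4 gene between 94 and 153 reads, and the basal points lie mostly above the swim points.

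Many other members also lay at transcript starts. Of the members, 308 of 635 (48.5%, 44.6 to 52.4), 350 of 672 (52.1%), 208 of 385 (54.0%) and 186 of 328 (56.7%) lay within 3 kb of a GENCODE M21 transcript start. Of intronic H3K27Ac peaks under the same limits, 6.47%, 7.44%, 6.98% and 8.29% did. A peak over a transcript start also covers a first exon, so the exon label itself draws such peaks to the members. Only 0.143%, 0.089%, 0.218% and 0.289% of intronic peaks held a start. The comparison with intronic peaks is thus partly set by the labels. In the deposited annotation, the transcript named for 307, 336, 212 and 187 exonic members came without an Entrez gene number. Of these, 87.3%, 88.1%, 85.8% and 88.8% lay within 3 kb of a GENCODE start, against 6.25%, 10%, 14.1% and 9.38% of exonic members whose transcript had a number. How the deposited distance was measured was not tested. A start lay inside 33.7%, 36.0%, 35.3% and 38.1% of members. The members therefore fell into a set at starts that the deposited distance did not count and a set in gene bodies. Members near a start had median heights of 22, 21, 20 and 20.5 reads, and members in bodies 19, 19, 17 and 18 reads.

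Near a start, long non-coding RNA genes were the largest class, with 201, 217, 128 and 117 members. Protein-coding genes had 44, 59, 33 and 30 members there, pseudogenes 28, 38, 15 and 14, and small RNA genes 35, 36, 32 and 25. In bodies, protein-coding genes had 273, 272, 142 and 113 members and long non-coding RNA genes 52, 49, 34 and 28. By deposited label, 467, 496, 290 and 251 members were exonic, 137, 136, 80 and 61 lay in a 3′ UTR and 31, 40, 15 and 16 in a 5′ UTR. At the distance limit itself, the 57, 66, 32 and 34 members between 3 and 4 kb from a deposited start had median heights of 18, 17, 19.5 and 17 reads. The 66, 72, 50 and 45 peaks left out just inside 3 kb had medians of 18.5, 19, 18 and 20 reads.

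**Figure D2:**
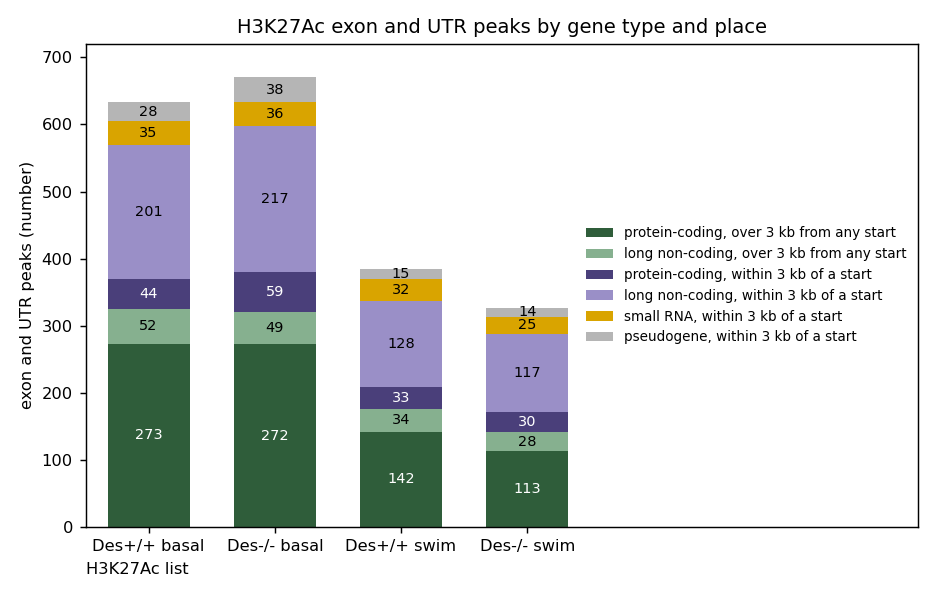
Number of members (y axis) in each of the 4 lists (x axis), split by the class of the gene and by whether the peak lay within 3 kb of a GENCODE M21 start. Long non-coding genes near a start and protein-coding gene bodies are the tallest parts in every list, while the 1 body pseudogene of each list and the 1 member without a match are not drawn.

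Several of the high non-coding members lay upstream of microRNAs, which are cut from long primary transcripts and repress messages that pair with their seed. In all, 24 regions had a microRNA as their nearest deposited start, and 11 of them held a peak in all 4 lists. A few microRNAs are printed with their RefSeq mature sequence because high regions lay at the annotated start of a transcript near them, with the seed, bases 2 to 8, in capitals.
miR-23a-3p: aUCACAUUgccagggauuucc
let-7a-5p: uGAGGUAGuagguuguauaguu
miR-30a-5p: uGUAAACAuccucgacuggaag
The 3 seeds differ, so the 3 do not form a seed family. Exon 1 of Gm26887, whose region lay 9123 bp from the Mir23a hairpin, reached 146, 146, 109 and 115 reads. The 6720427I07Rik region, 7643 bp from the Mirlet7a-1 hairpin, reached 103, 137, 76 and 87 reads. let-7 microRNAs are known for holding back growth in differentiated cells. In Des-/- swim, the input under both of these peaks was over the member limit, at 11 and 12 reads. The Gm20732 region, whose nearest deposited start is Mir30d, reached 62, 72, 48 and 37 reads. The Gm6420 region, 14485 bp from the Mir30a hairpin, reached 34, 31, 36 and 36 reads. Unlike the other 3 regions, its swim heights were not below its basal heights, although the difference of a few reads is within the counting interval of each. Gm26887 and Gm6420 lie on the minus strand, below their hairpins in coordinate, so these transcripts run away from Mir23a and Mir30a. 6720427I07Rik, also on the minus strand, runs towards Mirlet7a-1.

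Other high long non-coding members lay in last exons. Exon 2 of Gm26887 reached 97, 95, 66 and 70 reads, and exon 2 of Gm14486 reached 93, 88, 68 and 63 reads. Junos lies beside Jun, an early response transcription factor gene, and its exon 4 reached 42, 42, 34 and 32 reads. D830036C21Rik lies nearest to Fosb, another early response gene, and reached 51, 53, 31 and 46 reads. At pseudogenes, B330016D10Rik, nearest to Spen, reached 106, 116, 83 and 75 reads. The other pseudogene regions with a peak in all 4 lists stayed lower, the next reaching 49 reads at Gm48851 in Des+/+ basal.

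Among protein-coding genes, a few members near a start lay at genes known in this tissue. Lmna encodes lamin A/C, the nuclear envelope proteins whose chromatin the study also pulled down. Its 5′ UTR region, chr3:88509221-88511226, reached 54, 65, 28 and 53 reads. The low value was that of Des+/+ swim.

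In protein-coding bodies, the members lay late in the gene. Their median position was 81.6%, 80.8%, 84.0% and 76.0% of the way from start to end, against 43.8%, 44.4%, 45.2% and 45.8% for intronic peaks in protein-coding genes. In the last 20% of the gene lay 51.6%, 50.7%, 54.2% and 46.9% of them, against 13.3%, 13.4%, 12.9% and 13.5% of intronic peaks. A UTR label places a member near an end of a transcript by definition. The members labelled as exon alone had medians of 65.8%, 66.1%, 63.3% and 59.6%. An exon label also restricts where in a gene a member can lie, and the positions of all exons were not counted. These positions therefore do not show a place beyond that of exons in general. The genes mostly carried a peak at their own start as well. Of the genes with a body member, 76.8%, 83.5%, 70.2% and 73.7% had a promoter peak of their own, close to the 83.6%, 84.5%, 72.0% and 69.6% of genes with an intronic peak and above the 43.4%, 45.5%, 33.0% and 33.0% of all protein-coding genes. The median gap from a member in a protein-coding body to the next peak was 4722, 3306, 5924 and 5165 bp. For intronic peaks it was 3890, 3685, 4325 and 3918 bp, and for all peaks 7114, 7162, 9490 and 11300 bp.

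In protein-coding bodies, the highest regions with a peak in all 4 lists were not at sarcomere genes. Exon 6 of Prdm2, a member of a family of histone methyltransferases, lay under the highest, chr4:143161135-143162286, with 73, 71, 46 and 61 reads. The 3′ UTR of Bhlhe40, a transcriptional repressor of the circadian and hypoxia response, reached 49, 39, 41 and 37 reads. Pomc encodes the precursor of adrenocorticotropic hormone and melanocyte-stimulating hormones. Its 3′ UTR reached 39, 42, 36 and 33 reads. Exon 11 of Sorbs3, which encodes the vinculin-binding adaptor vinexin, reached 50, 40, 30 and 36 reads. Exon 13 of Ssh2, a phosphatase that switches on the actin-severing protein cofilin, reached 31, 29, 39 and 30 reads. The other 5 of the 10 highest such regions, at Midn, Asap2, Sh2d6, H13 and Pura, reached 27 to 50 reads. Ssh2 was also among the 7 genes with 3 or more regions, beside Notch1, Synpo, Arid5b, Pgpep1, Smg6 and Tcf4.

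Synpo, which encodes the actin-binding protein synaptopodin, had 4 regions on chromosome 18. That over exon 2 of 4 held a peak in every list, with 23, 32, 21 and 16 reads. Its 3′ UTR reached 25, 26 and 24 reads with none in Des-/- swim, and the adjoining region over exon 3 of a shorter transcript reached 18, 24 and 19 reads with none in Des-/- swim. Arid5b encodes a DNA-binding factor that recruits a histone demethylase, and had 3 regions labelled as 3′ UTR. The region chr10:68090634-68093613 reached 31, 26, 19 and 21 reads, and chr10:68128047-68129530 reached 21, 23, 17 and 15 reads. The regions of Pgpep1 and of Smg6, a nuclease of nonsense-mediated decay, stayed between 15 and 19 reads, and no region of either held a peak in all 4 lists. In 1600002D24Rik, the region over exon 4 of 6 reached 25, 34, 18 and 22 reads.

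Of 199 genes in 9 lists of cardiomyocyte genes, 27 had a member in at least 1 list. Among list genes with any H3K27Ac peak, 17 of 173 (9.83%, 6.23 to 15.2), 16 of 174 (9.20%), 11 of 155 (7.10%) and 10 of 120 (8.33%) had a member. Among all protein-coding genes with a peak, 2.79%, 2.76%, 2.13% and 1.70% did. The list genes also held more peaks, with a median of 2 per gene against 1, and were longer, with a median of 34.1 to 34.6 kb against 25.0 to 26.1 kb. Among genes with 3 or more peaks, the shares were 18.2% (10.7 to 29.1), 21.2% (13.1 to 32.5), 15.7% (8.17 to 28.0) and 28.6% (15.3 to 47.1) in the lists, and 13.0%, 13.6%, 11.1% and 11.8% over all genes. The lowest bound of the list genes lay below the value of all genes in the first 3 of the 4 lists. The gene lists were unequal, with a member in 6 of 21 Z-disc genes, 6 of 31 genes of intermediate filaments, costameres and the intercalated disc, 5 of 25 cardiac transcription factors, 4 of 40 genes of energy metabolism, 2 of 17 channels, and 1 each of 15 thick filament and titin, 16 thin filament, 20 calcium handling and 20 stress genes.

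The sarcomere genes had low members. Exon 2 of Tpm1, the tropomyosin that covers the myosin-binding sites of actin, lay under chr9:67036024-67036679, with 18, 20, 15 and 17 reads. Exon 68 of Ttn, the giant spring protein of the sarcomere, had a member only in Des-/- basal, chr2:76806856-76807221, with 17 reads. Exon 9 of Actn2, the α-actinin that crosslinks actin at the Z-disc, had one only in Des+/+ basal, with 19 reads. All 3 sat near the minimum of 15 reads, where a further few reads decide whether a peak is listed.

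The Z-disc adaptors Bag3, Pdlim1, Ldb3, Synpo2l and Pdlim3 link actin and α-actinin to signalling or to protein turnover. Exon 2 of Bag3, a co-chaperone that clears damaged filamin, lay under chr7:128539422-128542447, within 3 kb of a GENCODE start, with 33, 26, 16 and 26 reads. Pdlim1 had a pair of regions in its minus-strand gene. The one over exon 3 of 7, chr19:40248836-40250323, reached 16, 23, 17 and 17 reads. The one over the last exon of a shorter transcript, chr19:40246482-40248147, reached 20, 23 and 24 reads and had no peak in Des+/+ swim. Synpo2l reached 20, 15 and 15 reads with none in Des-/- swim, Ldb3 reached 20 and 22 reads in the basal lists alone, and Pdlim3 reached 16 reads in Des+/+ basal alone.

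Linkers of the membrane and the nucleus also had members. Syne1 encodes nesprin-1, which joins the nuclear envelope to the cytoskeleton, and its region over exon 55 of 146, chr10:5288505-5290042, reached 20, 20, 21 and 15 reads. Syne2, its relative nesprin-2, reached 16 and 15 reads in the basal lists alone. Ank3 reached 20, 32 and 16 reads with none in Des+/+ swim, and Dsp, the desmoplakin that anchors desmin at the intercalated disc, reached 17, 17 and 15 reads with none in Des-/- swim. A region over the facing 3′ ends of Ap3m1 and Vcl, chr14:21031249-21034164, reached 50, 48, 19 and 24 reads. Vcl encodes vinculin, and the region cannot be given to either gene. Vcl is counted among the 27 list genes with a member, but this region is not among the 29 muscle regions, which lie in 26 genes.

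Among cardiac transcription factors, the 5′ UTR of Gata4 was the highest of the 29 muscle regions, chr14:63239663-63242145, with 36, 34, 18 and 26 reads. GATA4 is a zinc finger factor needed for heart muscle gene expression. Mef2a reached 22 and 17 reads and Tbx20 24 and 16 reads in the basal lists alone. Hand2 had a member of 15 reads in Des-/- swim alone and Irx4 one of 16 reads in Des+/+ swim alone. The Hand2 member lay within 3 kb of a GENCODE start, and its nearest deposited start was that of Hand2os1. In the calcium and channel lists, Pln encodes the calcium pump inhibitor phospholamban. It reached 20 and 21 reads in the basal lists at 1 region and 18 reads in Des+/+ basal at another. Both Pln regions lay within 3 kb of a GENCODE start, and the nearest deposited start at the second was that of Cep85l. Kcne1 reached 16, 18 and 15 reads with none in Des-/- basal. Of the energy genes, Cd36 reached 19 and 16 reads in the basal lists, Mb 17 reads in Des-/- basal and 16 reads in Des+/+ swim, Lpl 18 reads in Des+/+ swim alone and Pfkm 15 reads in Des-/- basal alone. Hspb7, a small heat shock protein of heart muscle, reached 22, 18 and 16 reads with none in Des-/- swim. Over the 29 muscle regions, 7 held a peak in all 4 lists (24.1%, 12.2 to 42.1, against 28.2% of all 903 regions), 6 in 3, 7 in 2 and 9 in 1, and 24 lay in gene bodies. Their median heights were 20, 20, 16.5 and 17 reads.

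**Figure D3:**
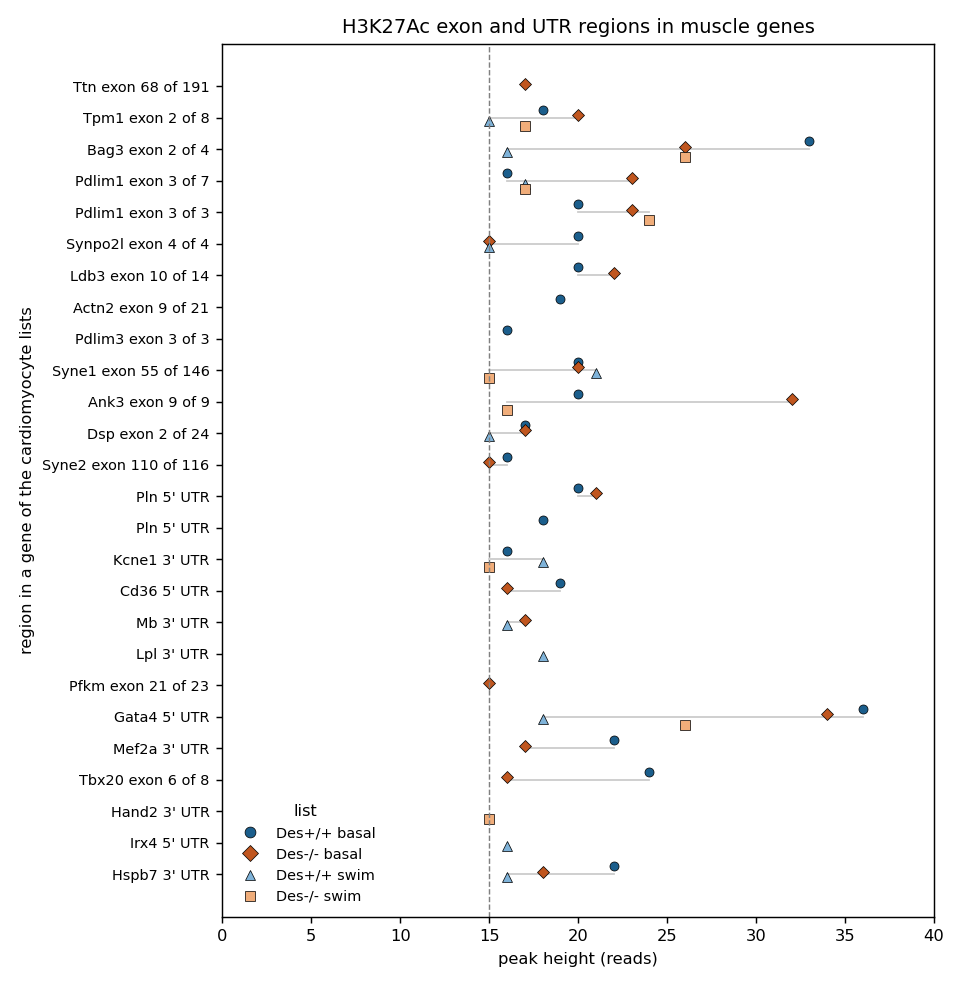
Peak height in reads (x axis) of 26 regions of 24 cardiomyocyte-list genes (y axis), with 1 point per list in which the region held a peak and a dashed line at the minimum height of 15 reads. The highest points belong to Gata4, Bag3 and Ank3, and the other points lie between 15 and 24 reads.

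Genes that the study follows and genes of other heart cells also had members. The 3′ UTR of Kdr, the VEGF receptor of endothelium, lay under chr5:75932506-75934679, with 48, 46, 26 and 28 reads, and the swim heights were below the basal heights in both genotypes. Notch1, the receptor of the pathway the study examined, had 4 regions. That over exon 14 of 34, chr2:26475317-26477119, reached 30, 28, 16 and 19 reads. That over exon 16, chr2:26473942-26475180, reached 27, 16 and 15 reads with none in Des-/- swim. A region over the last exon of a 2-exon transcript, chr2:26497407-26499011, reached 15, 20, 15 and 18 reads, and the last one reached 15 reads in Des+/+ basal alone. The 3′ UTR of Notch3 reached 37, 20 and 17 reads with none in Des-/- swim. Pecam1 reached 30, 30, 26 and 28 reads, Flt1 20, 18, 16 and 16 reads and Nos3 18, 30, 23 and 28 reads. All 3 are endothelial genes, and each region lay within 3 kb of a GENCODE start. The nearest deposited start at the Nos3 region was that of Atg9b. Sparc, a matrix protein of fibroblasts and endothelium, reached 41, 23, 27 and 28 reads over exon 4. A member lay in 7 of 31 endothelial genes, of which 29 had any peak, in 3 of 35 genes of fibroblasts, pericytes and matrix, of which 12 had any, and in 0 of 25 leukocyte genes, of which 4 had any. Among endothelial genes with a peak in the list, 17.2% (7.6 to 34.5), 10.3%, 16.7% and 16.7% had a member, against 2.79%, 2.76%, 2.13% and 1.7% of all protein-coding genes with a peak. These shares rest on 3 to 5 genes per list. Unlike for the cardiomyocyte lists, the number of peaks per gene and the gene length were not compared for the endothelial list. All 4 Notch1 regions lay in a gene that cardiomyocytes and endothelium can both express, and which cells gave the signal was not tested.

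Sequence composition set the members apart from promoter peaks more than from intronic ones. In the middle 300 bases, the median GC content of members was 51.7% in all 4 lists, against 48.3% to 48.7% for intronic peaks and 62.7% to 63.3% for promoter peaks. Members held a median of 6 CpG dinucleotides, intronic peaks 3 to 4 and promoter peaks 21 to 22. Members at small RNA genes held 17, 18, 19.5 and 21.

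Motifs were searched by letters on both strands in the same window. GATA was AGATAA, TEAD was GGAATG and the muscle E-box was CAGCTG, and MEF2 and the CArG box of SRF, whose AT-rich patterns can overlap each other, were searched by their usual patterns. The E-box stood in 20%, 21%, 20% and 17.7% of members, against 18.7%, 18.4%, 16.9% and 18.2% of intronic peaks and 16.3%, 16.4%, 15.1% and 14.9% of all peaks. GATA stood in 11.5%, 11.2%, 9.09% and 10.1% of members, against 14.4%, 13.8%, 15.3% and 14.7% of intronic peaks and 7.99%, 7.92%, 7.74% and 7.59% of all peaks. TEAD stood in 14%, 16.8%, 13.8% and 14% of members, in 18.9%, 17.6%, 17.2% and 16.5% of intronic peaks and in 13.6%, 13.2%, 12.7% and 12.5% of all peaks, MEF2 in 5.2%, 3.72%, 3.64% and 3.05% of members and in 2.58%, 2.33%, 2.09% and 1.67% of all peaks, and the CArG box in 1.42%, 2.08%, 1.3% and 1.52% of members and in 1.21%, 1.32%, 1.25% and 1.2% of all peaks. Members and intronic peaks held MEF2 about equally often, at 4.95%, 4.45%, 4.29% and 3.76% of intronic peaks. Of the 29 muscle regions, 8 held the E-box (27.6%), 6 TEAD (20.7%), 5 GATA (17.2%), 1 the CArG box (3.45%) and 0 MEF2. Windows of 30 bases are printed for muscle genes described above, in plus-strand letters of GRCm38.p6, with the match in capitals, so that CATTCC is TEAD read on the other strand.
Tpm1 E-box, chr9:67036363-67036392: acacggctccctCAGCTGctgggcgaaggg
Gata4 E-box, chr14:63240947-63240976: ccgaggtggttcCAGCTGcagcggcactgc
Pdlim1 GATA, chr19:40249589-40249618: gcggagtggcaaAGATAAgcaagcacttac
Pdlim1 CArG box, chr19:40247694-40247723: gtcaagctacCCTTTAAAGGagtctgaata
Syne1 TEAD, chr10:5289220-5289249: cctttgtgccagCATTCCaggatctcctcg
Ttn TEAD, chr2:76807086-76807115: cctttgaggtacCATTCCactgggatatcc
A match describes the letters of the window and does not show that the factor was bound. The shares among muscle regions rest on 29 windows, and the E-box share lay within 10 percentage points of that of all members.

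Sharing between lists was counted by an overlap of at least 1 bp with any H3K27Ac peak of the other list. Of the 903 regions, 255 held a peak in all 4 lists (28.2%, 25.4 to 31.3), 179 in 3, 194 in 2 and 275 in 1. Over all H3K27Ac peaks, 6899 of 18277 merged regions were in all 4 lists (37.7%). Regions near a start were shared by all 4 lists in 155 of 444 cases (34.9%) and body regions in 100 of 459 (21.8%). Protein-coding bodies had 78 of 388 (20.1%, 16.4 to 24.4). Among regions missing from some lists, 134 were in both basal lists alone and 3 in both swim lists alone, whereas 16 were in both Des+/+ lists alone and 21 in both Des-/- lists alone. These patterns were not counted over all H3K27Ac regions. The basal lists held 15757 and 16638 peaks in all, and the swim lists 11157 and 10407. The median of the highest height rose with the number of lists, from 16 reads in 1 list to 19, 22 and 34 reads in 2, 3 and 4 lists.

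**Figure D4:**
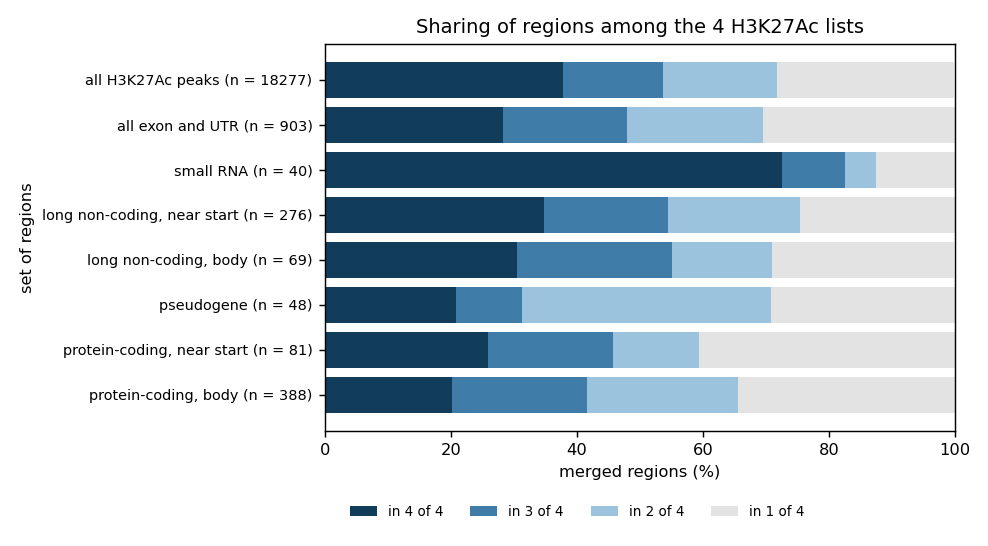
Percent of merged regions (x axis) with a peak in 4, 3, 2 or 1 of the lists, as stacked bars from dark to light, for each class of gene and place (y axis). The darkest part, regions in all 4 lists, reaches 72.5% at small RNA genes, 20.1% at protein-coding bodies and 37.7% over all H3K27Ac peaks.

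Between genotypes, most members had a counterpart. In basal cardiomyocytes, 140 of 635 Des+/+ members had no overlapping peak in Des-/- (22%, 19 to 25.4), against 14.5% of all Des+/+ basal peaks and 34.6% of intronic ones. In the other direction, 166 of 672 Des-/- members had none in Des+/+ (24.7%, 21.6 to 28.1), against 19.7% of all peaks. After swimming, 144 of 385 Des+/+ members had none in Des-/- (37.4%, 32.7 to 42.3), against 27% of all peaks, and 94 of 328 Des-/- members had none in Des+/+ (28.7%, 24.0 to 33.8), against 22.2%. Members thus lay between all peaks and intronic peaks.

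Between basal and swim cardiomyocytes, the loss ran mostly 1 way. In Des+/+, 294 of 635 basal members had no peak after swimming (46.3%, 42.5 to 50.2), against 39.0% of all basal peaks, and 49 of 385 swim members had none at basal (12.7%, 9.76 to 16.4), against 8.39% of all swim peaks. In Des-/-, 368 of 672 basal members had no peak after swimming (54.8%, 51.0 to 58.5), against 44.8% of all, and 33 of 328 swim members had none at basal (10.1%, 7.25 to 13.8), against 6.28%. The swim lists were shorter, and both genotypes showed the same order. With all lists cut to the same number of highest peaks, the basal to swim shares were 29.2% and 33.2% and the swim to basal shares 25.1% and 28.4%. Over all peaks cut in the same way, the basal to swim shares were 23.7% and 24.5% and the swim to basal shares 16.8% and 17%.

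Unshared members were mostly low. Of Des+/+ basal members of 15 to 17 reads, 46% had no peak in Des-/- basal, against 39.9% of all peaks of those heights. Among members of 31 reads or more, 0 of 125 had none. Of Des-/- basal members of 15 to 17 reads, 82.7% had no peak in Des-/- swim, against 82.8% of all peaks, and of those of 31 reads or more 5.93%, against 6.36%. Within a height class the members were lost after swimming about as often as other peaks of the same list. Body members were unshared more often than members near a start in all 8 directions, for example 62.1% against 48.0% of Des-/- basal members after swimming. Body members were also lower, and within height classes this order was not always kept. In the example the shares were 84% against 81% at 15 to 17 reads and 0% against 8.14% at 31 reads or more. Of Des-/- basal members of 18 to 22 reads, 20.8% in bodies and 29.5% near a start had no peak in Des+/+ basal.

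**Figure D5:**
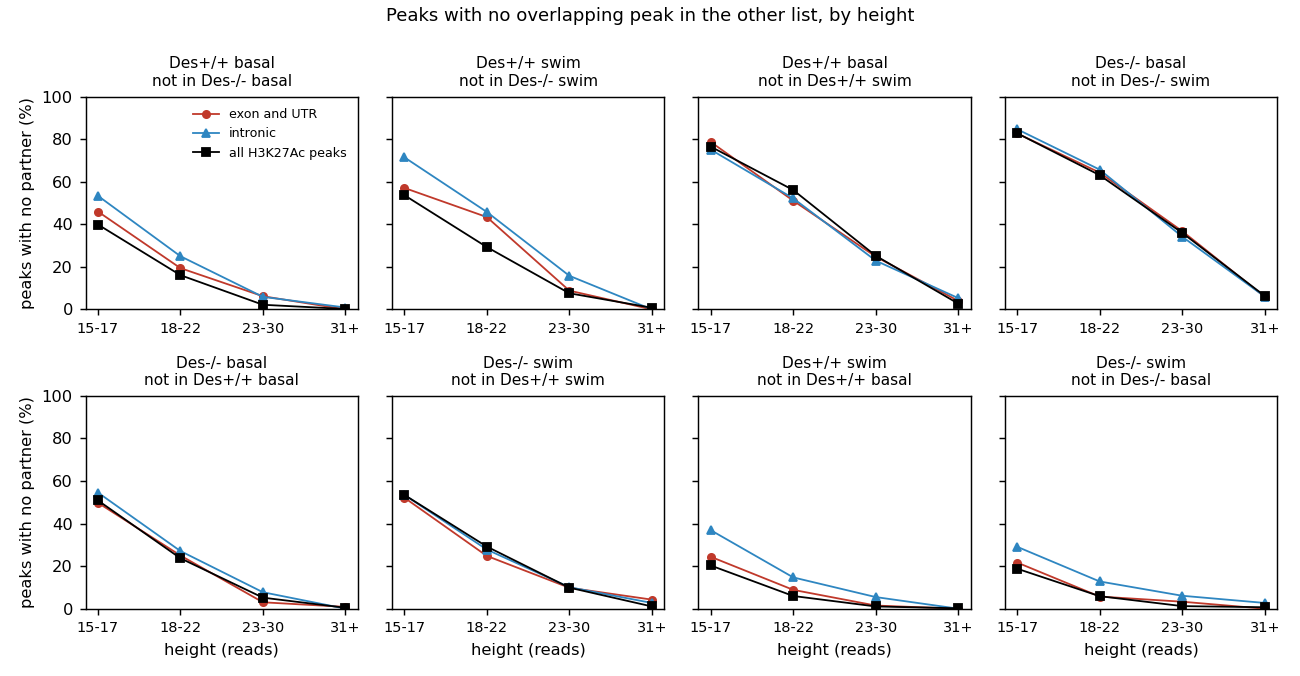
Percent of peaks without an overlapping peak in the other list (y axis) by height class in reads (x axis), with 1 panel for each of the 8 directions and lines for members, intronic peaks and all peaks. The shares fall with height in each panel, for members from 82.7% of members of 15 to 17 reads to 5.93% of those of 31 reads or more in Des-/- basal against Des-/- swim.

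A few members of good height were unshared. Trim37 encodes a ubiquitin ligase, and its exon member reached 35, 26 and 17 reads with none in Des+/+ swim. Gm22973 and Gm23472, both U2 small nuclear RNA genes, had the same pattern. They are among the U2 copies, whose lowest identity to Rnu2-10 was 95.3%, so their heights are uncertain as well. The 3′ UTR of Clmp, a cell adhesion protein, reached 28, 25 and 33 reads with none in Des+/+ swim. In the Des-/- swim list, Gm35082 reached 32 reads, against 15 in Des-/- basal and none in either Des+/+ list. The 3′ UTR of Pde4b, a cyclic AMP phosphodiesterase, reached 21 reads in Des-/- basal and 23 in Des+/+ swim with none in the other lists. Gm13168, Gm13243, Gm4924, Gm2237, Gm43391 and Gm21847, also among the highest unshared members, lie in clusters of near-identical copies and are uncertain for that reason. Anapc16 and Mertk reached 20 reads in Des+/+ swim alone.

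Where a member and a peak of the other list overlapped 1 to 1, the heights were compared, which leaves out members that fell below 15 reads in the other list. Between basal genotypes the median Des-/- to Des+/+ ratio was 1 over 367 members, against 1.06 over all peaks. After swimming it was 1.01 over 196 members, against 1.11. The swim to basal ratio was 0.80 over 270 members in Des+/+, against 0.739 over all peaks, and 0.78 over 238 members in Des-/-, against 0.756. Members had lower heights after swimming, as all peaks had, and by a slightly smaller factor.

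Over the 255 regions with a peak in all 4 lists, 180 were lower after swimming in both genotypes (70.6%) and 7 were higher in both (2.75%). The same was not counted over all H3K27Ac regions. Of 1 to 1 pairs over all peaks, 9.25% in Des+/+ and 10.6% in Des-/- were higher after swimming. The 7 were Gm6420, Cflar, Olfml2b, Ssh2, Palmd, A630091E08Rik and Gm49427. Cflar, which encodes the apoptosis inhibitor c-FLIP, reached 20, 33, 28 and 34 reads in its 5′ UTR. Gm49427, whose nearest deposited start is that of Xirp1, a gene of the intercalated disc, reached 16, 22, 27 and 25 reads. The 7 were named after their values were seen.

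Between genotypes, 71 of the 255 regions were higher in Des-/- in both conditions and 46 were lower in both. This was not counted over all H3K27Ac regions. Of 1 to 1 pairs, 48.8% of members at basal and 50% after swimming were higher in Des-/-, against 58.5% and 64.1% of all peaks. The shares were 44.2% and 42.8% for intronic, 42.8% and 51.7% for intergenic and 62.9% and 68.1% for promoter peaks. The largest Des-/- to Des+/+ ratio, 4.2 at basal, was at Gm11205 near Mir193a, with 20, 84, 42 and 68 reads. There the Des+/+ basal list had split the stretch, and a peak of 75 reads ended just before the member of 20 reads began. At the 3′ UTR of Rbpms, an RNA-binding protein of muscle, the heights were 15, 35, 15 and 17 reads, and peaks of 28 and 25 reads lay within 500 bp of it in Des+/+ basal and Des+/+ swim. Such splits cannot be told apart from a change of height in the deposited lists. No peak beside the region was listed at Mtmr3, a lipid phosphatase gene, with 46, 27, 17 and 19 reads, or at Lmna, where the swim ratio was 1.89. At Gm14488, nearest to Mir3089, the swim ratio was 2, with 34, 33, 15 and 30 reads. Cavin1, a protein of caveolae, reached 33, 22, 16 and 32 reads, and peaks of 33, 26 and 25 reads lay within 500 bp of it in the first 3 of the lists. The regions with the largest ratios were named after their values were seen.

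Lamin A/C, the envelope protein of the parallel pull-down, had few peaks, 188, 831, 635 and 536. A lamin A/C peak of the same group overlapped 1 of 635, 3 of 672, 1 of 385 and 1 of 328 members (0.157%, 0.446%, 0.26% and 0.305%), against 0.0254%, 0.18%, 0.125% and 0.211% of all H3K27Ac peaks. These shares rest on 1 to 3 members and their intervals were wide. The Gata4 5′ UTR was the one overlapped in all 4 groups, where the lamin A/C peak reached 259, 290, 257 and 243 reads over an input of 1 to 4 reads. At Gata4 the lamin A/C peak began between bases 63240425 and 63240428 and ended between 63241257 and 63241264 in the 4 groups. What gave these heights and nearly equal edges was not tested, so lamin A/C binding at Gata4 stays uncertain. The other 2 overlaps, at Sparc and at Speer4cos, were in Des-/- basal alone, with lamin A/C heights of 8 and 16 reads. Speer4cos belongs to a family of near-identical copies and is uncertain.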

How the data were processed

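Adult cardiomyocyte chromatin was pulled down for H3K27Ac or lamin A/C and sequenced as 8 libraries beside 8 inputs. The authors aligned the reads to GRCm38 (mm10) with Bowtie2 2.4.4 and SAMtools 1.13, used in-house scripts to call peaks per library over the matching input and annotated them with ChIPseeker 1.36.0, as named in the submitters' processing notes and the study's methods. The deposited signal of each peak is the height of read coverage in the pull-down and in the input, not scaled for depth, with a minimum of 15 reads for H3K27Ac. The deposited distance to the nearest start is a signed score in bp. Read placement inside near-identical copies was not re-examined. The authors' fold enrichment and FDR columns were not used.

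Members were selected as described, matched to GENCODE M21 by the transcript in the annotation and merged over lists with Python 3.11.15, pandas 2.3.3 and numpy 2.4.6. Overlap of 1 bp or more counted as shared, and the overlap script was tested on simulated data. Shares carry 95% Wilson intervals (scipy 1.17.1). Figures were drawn with matplotlib 3.10.9. With 1 library per group, no test was run. Motif windows were the middle 300 bases of each peak in GRCm38.p6.

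The members and the gene lists were chosen with earlier results of these data known. Genes were named by a rule: the 10 highest regions in all 4 lists by their lowest height, the 5 highest members of each list, the 3 highest unshared members of each direction, the 8 genes with the most regions, and the genes of the fixed lists with a member. The highest regions in protein-coding bodies, the highest of each non-coding class the 7 regions higher after swimming and the regions with the largest genotype ratios were added after the values were seen. Alternatives were stricter height, input and distance limits, equal numbers of highest peaks, a larger overlap, members at or above the median height and the gene of the nearest start. Distance to GENCODE M21 starts and leaving out the Des-/- swim list were alternatives chosen after seeing the data. The values and sequences of some genes that the rule names are not reported here.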

Additional observations from a re-analysis of the deposited data

Results flagged for a closer look

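The number of members differed between the genotypes in opposite directions. At basal, Des-/- had 37 more members than Des+/+ (672 and 635), and after swimming the difference was -57 (328 and 385). The numbers of all H3K27Ac peaks moved the same way, by 881 at basal and by -750 after swimming. The difference was not tested, since each group was 1 library. At basal the direction was not kept under every alternative: with equal numbers of highest peaks Des+/+ had 360 members and Des-/- 343, and over 3 kb from every GENCODE M21 start they had 327 and 322.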

How the results depend on the processing

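Each value was recomputed under up to 9 alternatives, which gave 86 values for 14 results, of which 34 moved beyond their interval or by over 1.5 times. No paired analysis was possible because each group had 1 library. With the same number of highest peaks in each list, the basal members numbered 360 in Des+/+ and 343 in Des-/-, 33.5% of regions were in all 4 lists, and the unshared shares were 29.2% (Des+/+ basal to swim), 25.1% (Des+/+ swim to basal), 33.2% (Des-/- basal to swim), 28.4% (Des-/- swim to basal) and 34.1% (Des-/- swim to Des+/+ swim). At heights of 20 reads or more, members numbered 340, 347, 165 and 158, 13 cardiomyocyte genes had one, and the shares were 53.8% (Des+/+ basal to swim), 6.06% (Des+/+ swim to basal) and 29.7% (Des+/+ swim to Des-/- swim). Over 3 kb from every GENCODE M21 start, members numbered 327, 322, 177 and 142, 21.7% of regions were in all 4 lists, and the shares were 29.1% (Des+/+ basal to Des-/- basal), 46.3% (Des+/+ swim to Des-/- swim), 52.3% (Des+/+ basal to swim) and 62.1% (Des-/- basal to swim). Without the Des-/- swim list, 40.6% of regions were in all lists that were left. Members at or above the median height were unshared in 5.88% and 6.05% (Des+/+ and Des-/- basal to the other genotype), 18.8% and 13.3% (Des+/+ and Des-/- swim to the other genotype), 22.6% and 3.55% (Des+/+ basal to swim and back) and 33.4% and 2.78% (Des-/- basal to swim and back). Fewer peaks, or higher ones, enter these alternatives by their construction. Depth limits the single heights, and members near 15 reads can enter or leave a list by counting error alone.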
